A study of Mus musculus with 27 samples.

Results

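Of 37332 genes, only 3, Anxa6, Stxbp2 and Ak7, met a rule for a chromatin level within 2-fold and a lowered cytoplasmic level in neurons. Their cytoplasmic level was at least 8 times lower in cortical neurons than in embryonic stem cells. They were chosen on mean CPM (the reads of a gene per 1000000 counted reads of its library). The rule asked for 5 CPM or more on chromatin of both cell types and a neuron-to-stem-cell chromatin ratio of 0.5 to 2. It further asked for 5 CPM or more in stem cell cytoplasm and a stem-cell-to-neuron cytoplasm ratio, with 0.1 CPM added to both sides, of 8 or more. Mitochondrial genes were left out. Before the cytoplasm ratio was applied, 3283 genes met these limits. The number of genes meeting the whole rule was 18 to 201 on 3 other scales, given below. The CPM values that made the choice are given as a description and with no test.

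Total RNA over 200 nt, depleted of ribosomal RNA, was sequenced in biological triplicate (paired reads of 100 bp) after mouse cells were split into chromatin, nucleoplasm and cytoplasm. mESC is the E14 embryonic stem cell line, grown on gelatin with LIF. mNPC is a neural progenitor line made in the submitters' laboratory and labelled C2, given EGF and FGF daily at 10 ng/ml. mCtx is a primary cortical neuron culture labelled E15D5, kept for 5 days, with no stated purification and therefore possibly of mixed cell types. The labels name no deletion or transgene, and the stem cells and progenitors are each 1 line.

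RNA bound to chromatin is rich in transcripts still being made or processed, the nucleoplasm holds released nuclear RNA, and the cytoplasm holds mostly finished messenger RNA. A gene can therefore be read at its site of synthesis and again as exported message. Anxa6 encodes annexin A6, a calcium-dependent protein that binds membrane phospholipids and acts in endocytosis and membrane repair. Stxbp2 encodes a Sec1/Munc18 protein that binds syntaxins and is needed for the release of secretory granules in immune and epithelial cells. Ak7 encodes an adenylate kinase, an enzyme that exchanges phosphate between adenine nucleotides, and is best known from motile cilia and sperm flagella.

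The 27 libraries held 11249862 to 19871198 counts each, and no 2 were identical. Summed over 8 stem cell markers, the level was 3693 to 4178 CPM in mESC cytoplasm and 0.533 to 1.34 CPM in mCtx cytoplasm, where Pou5f1, Zfp42, Fgf4, Dppa5a and Utf1 were at 0. The 8 neuron markers summed to 4743 to 5047 CPM on mCtx chromatin, and all of them were at 1 CPM or more in every mCtx fraction. Neural progenitor markers summed to 819 to 987 CPM in mCtx cytoplasm, with 8 of 8 at 1 CPM or more, and oligodendrocyte lineage markers to 147 to 187 CPM, with 6 of 8. Astrocyte markers summed to 385 to 415 CPM there, with 7 of 8 at 1 CPM or more, and microglia markers to 48.2 to 58.9 CPM, with 5 of 8. The microglia sum was no lower in mESC cytoplasm, at 55.6 to 73.8 CPM with 1 of 8. Fibroblast and mural markers summed to 17.6 to 23.3 CPM in mCtx cytoplasm, with 4 of 8. Endothelial markers summed to 3.26 to 3.53 CPM there, with none at 1 CPM and Cldn5 at 0. In mNPC cytoplasm neural progenitor markers summed to 5316 to 5717 CPM, with 8 of 8 at 1 CPM or more. Oligodendrocyte lineage markers summed to 1754 to 1850 CPM in mNPC cytoplasm, with 7 of 8, and astrocyte markers to 1192 to 1454 CPM, with 8 of 8. On mNPC chromatin the neuron markers summed to 2134 to 2456 CPM, with 7 of 8. Which cells of the neuron culture carried the RNA of Anxa6, Stxbp2 and Ak7 was not tested, and in these bulk samples fewer cells of a type and less RNA per cell cannot be told apart.

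Of 3705 genes steady on chromatin, 3283 also reached the minimum in mESC cytoplasm, and 1686 of those had a cytoplasm ratio of 0.5 to 2. The median log2 ratio of mESC over mCtx cytoplasm among the 3283 was -0.76, toward the neurons, and the 99th percentile was 1.69. Without the chromatin bound, 229 genes were lowered to the same degree in neuron cytoplasm, and 226 of them had a chromatin ratio under 0.5. The mirror rule, raised at least 8 times in neuron cytoplasm with steady chromatin, held 249 genes. These counts are on CPM of library totals. On other scales the number of lowered genes was 18 (CPM on trimmed-mean library sizes), 32 (rescaled TPM) and 201 (deposited TPM), and the mirror rule was counted on CPM only.

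**Figure D1:**
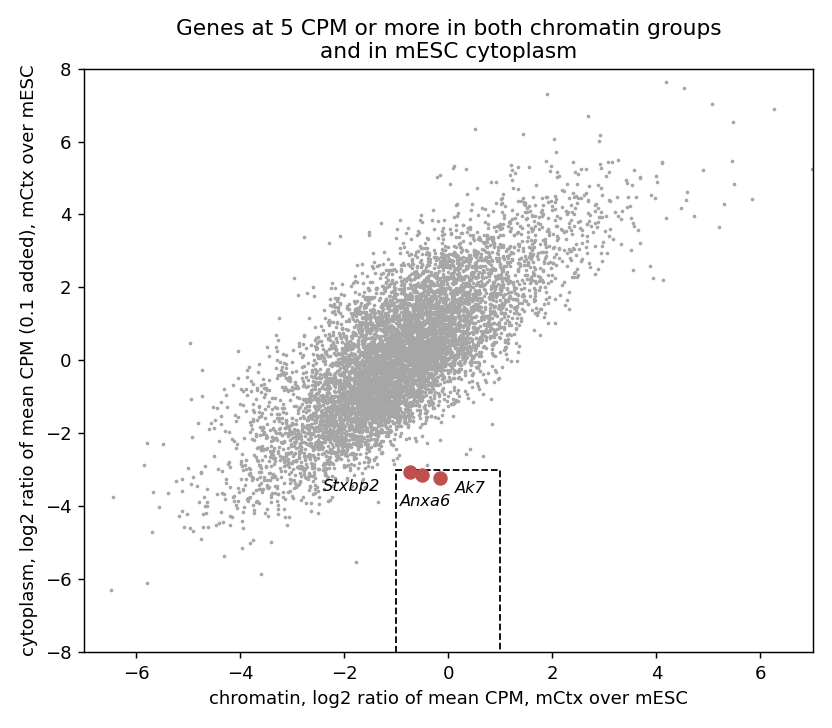
Each of 7669 grey points is a gene at 5 CPM or more in mESC chromatin, mCtx chromatin and mESC cytoplasm (2 lie outside the axes), with the log2 ratio of mean CPM in mCtx over mESC on chromatin (x) and in cytoplasm (y). The dashed box, open below, is the rule, and the 3 red points inside it lie just under its upper edge.

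All 3 genes sit close to that edge, with cytoplasm ratios of 9.37 (Ak7), 8.88 (Anxa6) and 8.41 (Stxbp2) and chromatin ratios of 0.895, 0.703 and 0.601. The nearest genes below the ratio were Ubap1l at 7.36, Pced1b at 6.33 and Pde4d, a cyclic AMP phosphodiesterase, at 6.18. Just under the chromatin band lay Dlc1, with a chromatin ratio of 0.391 and a cytoplasm ratio of 14.7. Ctnnal1 followed at 0.328 and 11, and the nuclear pore gene Nup188 at 0.321 and 9.59. Ak7 also lay close to the minimum of 5 CPM, with chromatin means of 5.71 CPM in mESC and 5.11 CPM in mCtx. Ak7 left the set without mESC chromatin replicate 1 or without mCtx chromatin replicate 1, and Stxbp2 left it without mESC cytoplasm replicate 1, so that 2 genes remained each time. Anxa6 stayed in it when any 1 library was left out.

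The promoters of Ak7 and Stxbp2, the members with an entry in the RefSeq promoter table, are shown as sequence context, and no value here bears on their use. They are the 250 bases before the RefSeq start (GRCm38.p6, plus strand, chr12:105705732-105705981 and chr8:3630859-3631108), with each CG pair in capitals. The RefSeq start of Stxbp2 lies inside the gene as counted, so that 154 of its 250 bases fall within the counted span.
Ak7: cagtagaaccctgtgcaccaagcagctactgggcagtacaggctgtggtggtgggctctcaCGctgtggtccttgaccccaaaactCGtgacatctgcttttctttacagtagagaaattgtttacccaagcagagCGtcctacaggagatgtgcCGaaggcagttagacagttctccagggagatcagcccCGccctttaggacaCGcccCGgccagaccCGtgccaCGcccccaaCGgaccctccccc
Stxbp2: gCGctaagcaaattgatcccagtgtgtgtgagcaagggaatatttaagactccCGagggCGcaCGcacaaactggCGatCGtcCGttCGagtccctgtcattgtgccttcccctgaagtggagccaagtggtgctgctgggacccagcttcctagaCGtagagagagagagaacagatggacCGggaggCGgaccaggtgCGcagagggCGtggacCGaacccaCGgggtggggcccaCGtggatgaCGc
Over the whole window of 300 bases, which runs past the start, Ak7 held 12 CG pairs and Stxbp2 22, at the 60.4th and 76.9th percentile of 32851 mouse promoters, whose median was 7. On either strand, GGGCGG was found for Ak7 and not for Stxbp2, and TATAAA and CCAAT for neither. Over all promoters these were found in 35.7% (GGGCGG), 13.6% (TATAAA) and 37.4% (CCAAT).

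Anxa6 was the most highly counted of the 3. It lies on chromosome 11, 54979108 to 55033445 of the minus strand (mm10), a span of 54338 bp with 26 exons in its principal GENCODE vM21 transcript. On chromatin its 3 libraries read 64.9, 61.3 and 73.7 CPM for mESC, 40.2, 39.4 and 48.4 for mNPC, and 53.9, 45.6 and 41.1 for mCtx. In cytoplasm they read 206, 168 and 164 CPM for mESC, 109, 108 and 87.5 for mNPC, and 19.1, 21.7 and 19.4 for mCtx. On chromatin the neuron libraries overlapped the progenitor libraries and lay below the stem cell libraries, whereas in cytoplasm the 3 cell types were fully separated.

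Anxa6 in nucleoplasm read 53.6, 60.2 and 53.1 CPM for mESC, 48.7, 62.4 and 63 for mNPC, and 32.6, 28.9 and 28.8 for mCtx. The stem cell and progenitor libraries overlapped, and every neuron library lay below them. Ordered by mean, its 9 groups ran from mESC cytoplasm (179 ± 23.1 CPM, SD, n = 3) and mNPC cytoplasm (101 ± 12.1) to mCtx nucleoplasm (30.1 ± 2.16) and mCtx cytoplasm (20.1 ± 1.46). Between mESC chromatin (66.6 ± 6.4) and mNPC chromatin (42.7 ± 4.96), each group's libraries overlapped those of the next in order. Libraries of different fractions are each scaled to their own total, so these orders are of shares of a fraction and not of amounts per cell.

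Stxbp2 lies on chromosome 8, 3630955 to 3643644 of the plus strand, a compact span of 12690 bp with 19 exons. GENCODE vM21 lists 15 transcripts for it, 4 of them protein-coding, 8 with a retained intron and 2 subject to nonsense-mediated decay. On chromatin it read 33.8, 24.8 and 25.3 CPM for mESC, 3.23, 2.12 and 2.05 for mNPC, and 20.1, 15 and 15.3 for mCtx. In cytoplasm it read 130, 73.5 and 73.7 CPM for mESC, 3.39, 2.99 and 1.53 for mNPC, and 9.96, 11.8 and 11 for mCtx. No cell types overlapped in either fraction, and mESC replicate 1 was the highest library in each.

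In nucleoplasm Stxbp2 read 38.9, 31.5 and 28.3 CPM for mESC, 1.35, 1.21 and 1.16 for mNPC, and 12.5, 15.1 and 13 for mCtx. Its 9 groups fell into 3 tiers by cell type, with no overlap between tiers. mESC was highest, from 28 ± 5.04 CPM (SD, n = 3) on chromatin to 92.6 ± 32.8 in cytoplasm. mCtx ran from 10.9 ± 0.912 in cytoplasm to 16.8 ± 2.87 on chromatin, and mNPC from 1.24 ± 0.101 in nucleoplasm to 2.63 ± 0.979 in cytoplasm. The order of the fractions thus turned around, with cytoplasm the highest group of mESC and the lowest of mCtx.

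Ak7 was the most thinly counted. It lies on chromosome 12, 105705982 to 105782447 of the plus strand, a span of 76466 bp with 18 exons. On chromatin it read 7.16, 4.5 and 5.47 CPM for mESC, 1.51, 1.09 and 1.31 for mNPC, and 5.44, 5.31 and 4.57 for mCtx. In cytoplasm it read 9.71, 10.7 and 10.7 CPM for mESC, 0.79, 0.443 and 0.944 for mNPC, and 0.989, 0.9 and 1.16 for mCtx. The neuron and stem cell libraries overlapped on chromatin, and in cytoplasm the neuron libraries overlapped those of the progenitors.

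The mCtx cytoplasm values of Ak7 rest on 14, 13 and 13 reads, against 181, 185 and 187 in mESC cytoplasm. In nucleoplasm Ak7 read 4.68, 3.97 and 5.55 CPM for mESC, 0.375, 0.445 and 0.476 for mNPC, and 1.06, 2.12 and 2.39 for mCtx. The progenitor values rest on 5 to 7 reads a library. By mean its groups ran from mESC cytoplasm (10.3 ± 0.551 CPM, SD, n = 3) to mNPC nucleoplasm (0.432 ± 0.0517). mESC chromatin (5.71 ± 1.35), mCtx chromatin (5.11 ± 0.471) and mESC nucleoplasm (4.73 ± 0.791) could not be ordered beyond their spread.

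**Figure D2:**
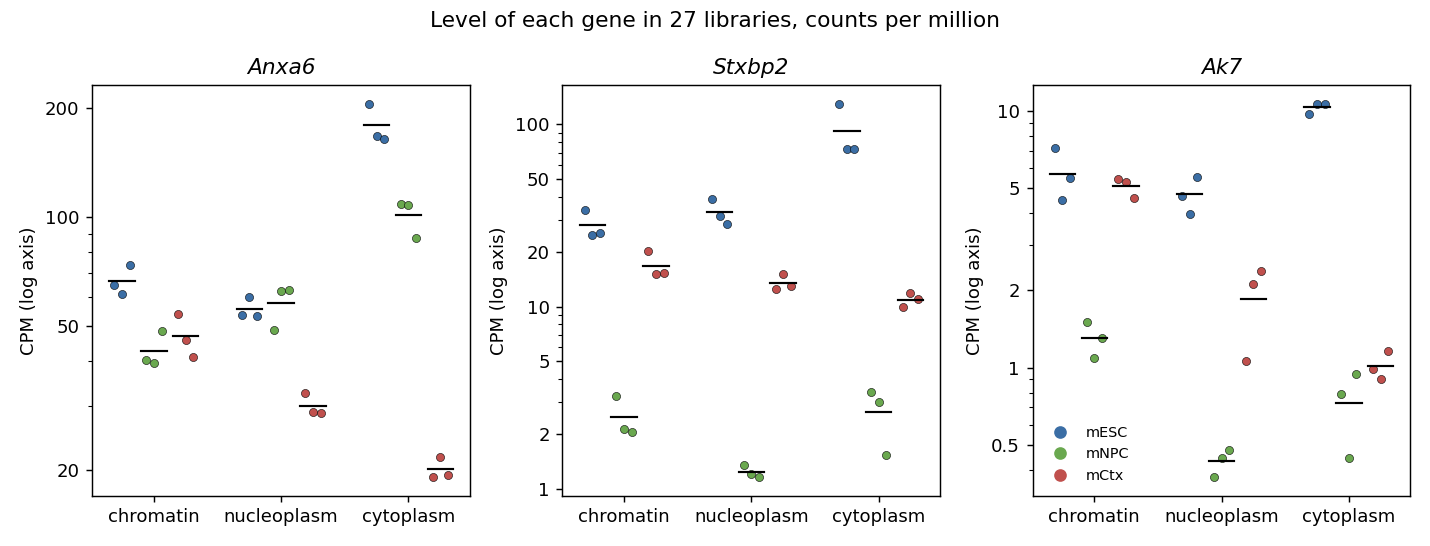
Each point is 1 library, the black bar is the mean of 3, and the y axis (log scale, its range set for each gene) is CPM in 3 fractions of mESC, mNPC and mCtx. The mESC means are higher in cytoplasm than on chromatin (179 against 66.6 CPM for Anxa6) and the mCtx means lower (20.1 against 46.8 CPM), and mNPC is the lowest cell type throughout for Stxbp2 and, by mean, for Ak7.

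The balance between fractions shows the contrast within each cell type. For Anxa6 the ratio of cytoplasm CPM to chromatin CPM was 2.69 in mESC, 2.38 in mNPC and 0.428 in mCtx. Among all genes at 5 CPM or more on chromatin of the same cell type, these stood at the 87th, 81st and 20.7th percentile. Relative to other genes, the Anxa6 ratio was thus high in stem cells and progenitors and low in neurons. Each fraction is scaled to its own total, so the ratio does not tell where most of the RNA lay.

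For Stxbp2 the ratio was 3.31 in mESC, 1.07 in mNPC and 0.65 in mCtx, at the 90.2nd, 58.5th and 31st percentile. For Ak7 it was 1.81, 0.556 and 0.199, at the 79th, 36.6th and 8.12th percentile. On mNPC chromatin, however, Stxbp2 had 2.47 CPM and Ak7 1.31 CPM (16 to 22 reads a library). Both were under the 5 CPM asked of the genes they are ranked against there. The median gene went the other way, from 0.64 in mESC and 0.831 in mNPC to 1.26 in mCtx. The mESC and mCtx ratios are those the rule used. The mNPC ratios were free of it, and there the genes differed by ratio of means. Anxa6 was as in mESC, and Ak7 and Stxbp2, on few reads, lay between the other cell types.

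**Figure D3:**
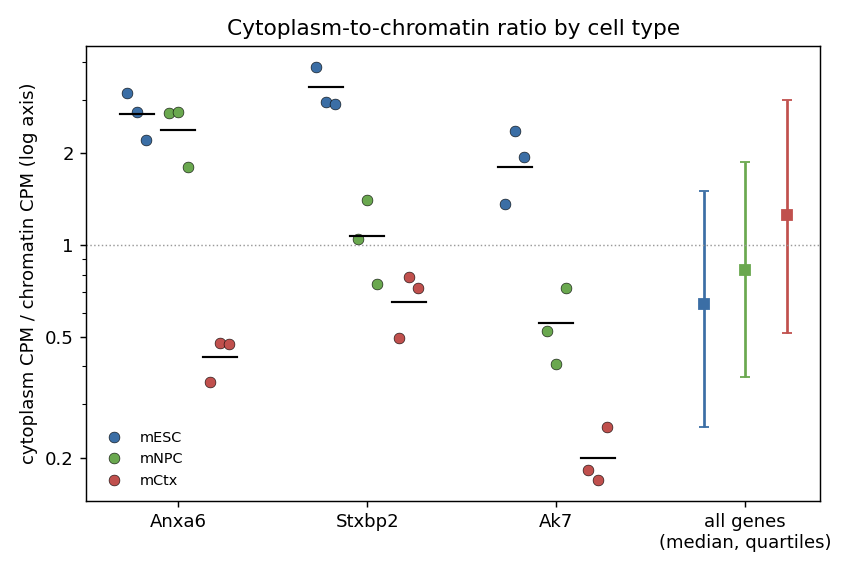
The y axis (log scale) is cytoplasm CPM over chromatin CPM. Points divide same-numbered libraries, a match by number only, bars are ratios of group means, and squares with whiskers are the median and quartiles of all genes at 5 CPM or more on that chromatin. The 3 genes step down from mESC to mCtx while the median gene rises from 0.64 to 1.26.

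The nucleoplasm was not read by the rule and could be tested. Anxa6, Stxbp2 and Ak7 were each lower in mCtx than in mESC nucleoplasm, by 1.86, 2.44 and 2.55 times. In edgeR's quasi-likelihood test with Benjamini-Hochberg adjustment over 18249 genes, the log2 fold changes were -0.89 (SE 0.11, adjusted p = 7.36e-08) for Anxa6, -1.29 (SE 0.21, adjusted p = 2.70e-06) for Stxbp2 and -1.35 (SE 0.26, adjusted p = 3.44e-05) for Ak7. For each gene, no mCtx library reached any mESC library. Of all genes tested, 43.4% were called lower and 38.8% higher in this comparison. Among the 3283 genes steady on chromatin and at the minimum in mESC cytoplasm, 17.5% had a lower mean CPM in mCtx nucleoplasm. The 3 genes were further chosen for lower mCtx cytoplasm, so neither share tells how unusual 3 of 3 is. The nucleoplasm changes of Anxa6, Stxbp2 and Ak7 stood at the 36.6th, 30.8th and 29.8th percentile of all fold changes. In cytoplasm the same fit placed the 3 genes between the 11th and the 12.2nd percentile. On the log2(TPM + 1) scale (TPM is the deposited level per transcript length), rescaled to a common median, limma kept the call of Anxa6 (-1.10, adjusted p = 3.67e-09), while Ak7 (-0.36, adjusted p = 0.109) and Stxbp2 (-0.50, adjusted p = 0.0602) no longer passed. Without rescaling limma called 2 of 3 lower. Ak7 did not pass on log2(TPM + 1) (-0.42, limma adjusted p = 0.0962), nor Stxbp2 on log2(TPM + 0.1) (-0.48, limma adjusted p = 0.107).

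By counts, Stxbp2 and Ak7 were lower in progenitors than in stem cells and Anxa6 did not pass. In mNPC against mESC nucleoplasm, Stxbp2 was lower by 25.6 times (log2 -4.68, SE 0.27, edgeR adjusted p = 2.16e-14) and Ak7 by 10.4 times (-3.38, SE 0.32, edgeR adjusted p = 4.11e-10). Anxa6 differed by 0.11 on the log2 scale (SE 0.11, edgeR adjusted p = 0.364). Thus 2 of 3 were called lower, against 41.5% of all genes (35.7% higher). On the deposited TPM scales all 3 were called lower, with Anxa6 at -1.18 by limma on log2(TPM + 1) (adjusted p = 6.76e-06), where the median gene had moved to -0.35, and at 0.02 after rescaling (adjusted p = 1). On chromatin the mESC mean was 11.3 times the mNPC mean for Stxbp2, 4.37 times for Ak7 and 1.56 times for Anxa6. In cytoplasm it was 35.2, 14.3 and 1.76 times, and these chromatin and cytoplasm values share the mESC libraries that the rule read and carry no test.

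Against progenitors, neurons held more nucleoplasmic Stxbp2 and Ak7 and less Anxa6. Stxbp2 was higher in mCtx than in mNPC nucleoplasm by 10.5 times (log2 3.39, SE 0.28, edgeR adjusted p = 2.23e-11) and Ak7 by 4.08 times (2.03, SE 0.34, edgeR adjusted p = 8.24e-06). Anxa6 was lower by 2.01 times (-1.01, SE 0.11, edgeR adjusted p = 1.22e-08). Of all genes, 36.9% were called higher and 34.9% lower. By limma on log2(TPM + 1) Anxa6 stood at 0.10 (adjusted p = 0.784), where the median gene had moved to 0.81, and after rescaling at -1.12 (adjusted p = 3.52e-09). Ak7 did not pass on these 2 scales (0.32, adjusted p = 0.22, and 0.14, adjusted p = 0.652) and passed by limma on log2(TPM + 0.1) (1.35, adjusted p = 0.00243).

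Within progenitors, only Anxa6 passed a test of chromatin against cytoplasm. It was lower on chromatin by 2.69 times (log2 -1.43, SE 0.11, edgeR adjusted p = 1.33e-11), a call made for 32.5% of all genes. Ak7 stood at 0.69 (SE 0.33, edgeR adjusted p = 0.0643) and Stxbp2 at -0.29 (SE 0.28, edgeR adjusted p = 0.383), where 37% of all genes were called higher on chromatin. Without mNPC cytoplasm replicate 3, Ak7 passed as higher on chromatin (0.91, edgeR adjusted p = 0.0308), and it did so with total-count scaling (0.86, edgeR adjusted p = 0.0212).

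The deposited counts cover introns, since the length given for each gene is its full span, so TPM (transcripts for each 1000000, which allow for transcript length) were read beside them. Anxa6 TPM in cytoplasm was 41.9, 39.7 and 41.7 in mESC and 1.53, 1.74 and 1.41 in mCtx, and on chromatin 6.98, 7.27 and 10.2 against 8, 7.66 and 6.74. Stxbp2 TPM in cytoplasm was 40.5, 29.1 and 25.9 in mESC and 2.08, 2.91 and 3.11 in mCtx, and on chromatin 24.8, 21.3 and 31.9 against 24.6, 25.2 and 35.1. For both genes the chromatin libraries of the 2 cell types overlapped and the cytoplasm libraries did not. Ak7 TPM was 1.54, 1.92 and 1.95 against 0.09, 0.1 and 0.12 in cytoplasm, and 0.98, 2.34 and 1.88 against 0.95, 1.67 and 3.18 on chromatin.

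By TPM the chromatin ratio of mCtx over mESC was 0.918 for Anxa6, 1.09 for Stxbp2 and 1.12 for Ak7. The cytoplasm ratio of mESC over mCtx, with 0.1 TPM added to both sides, was 24.8, 11.4 and 9.36. The scale itself differed, since the median gene had 8.77 CPM for each TPM in mCtx cytoplasm and 4.33 in mESC cytoplasm. With TPM rescaled by the median ratio the cytoplasm ratios, again with 0.1 added, were 13.4, 6.24 and 5.51. The chromatin ratios were 0.934, 1.1 and 1.13. On that scale and with 0.1 added only Anxa6 still met the limit of 8. The rescaled cytoplasm means of Ak7 were 1.13 in mESC and 0.124 in mCtx. The added 0.1 therefore lowers its ratio strongly, and its mESC mean was under the minimum of 5. Per length, Stxbp2 was the most abundant of the 3 on mCtx chromatin at 28.3 TPM, against 7.47 for Anxa6, although its span drew fewer reads. Stxbp2 had 0.594 CPM for each TPM there, against 6.27 for Anxa6 and 3.18 for the median gene. How far intron reads entered the TPM of Stxbp2, which has 8 transcripts with a retained intron, was not tested.

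**Figure D4:**
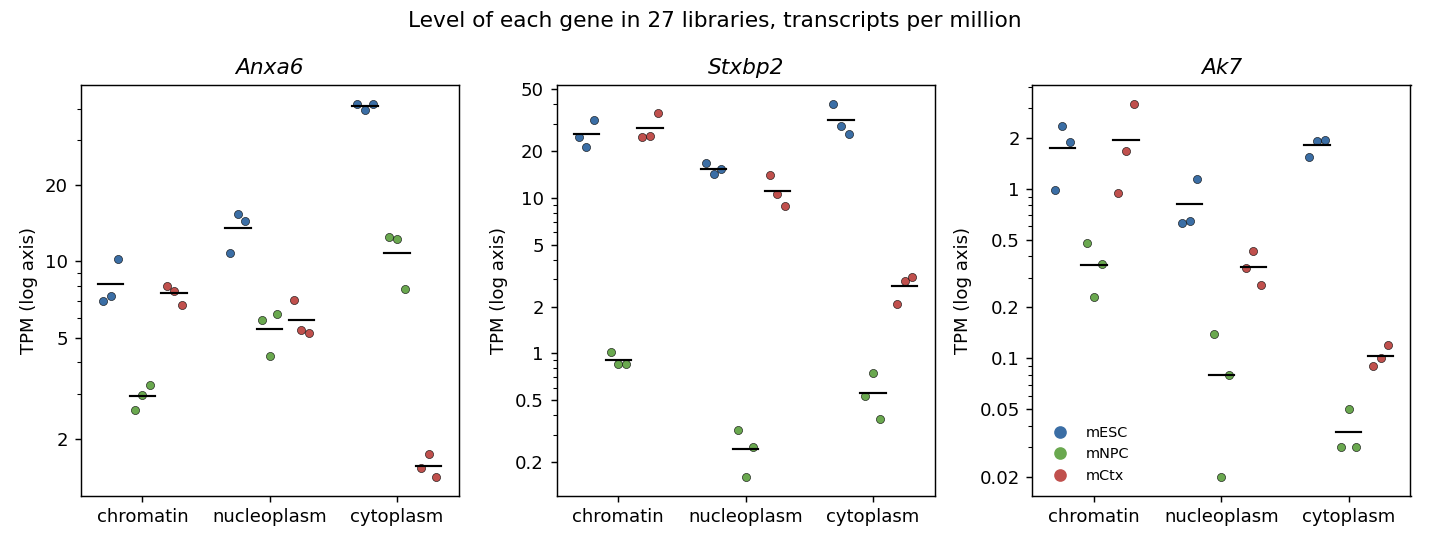
Points are the 27 libraries, bars the means of 3, and the y axis (log scale, range set for each gene) is the deposited TPM. In the chromatin column the mESC and mCtx points overlap for each gene, and in the cytoplasm column they are apart. Cytoplasm means in mESC and mCtx are 41.1 and 1.56 TPM for Anxa6, 31.8 and 2.7 for Stxbp2, and 1.8 and 0.103 for Ak7.

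No annotated gene overlapped Anxa6, Stxbp2 or Ak7, so their intron reads were shared with no other annotated gene. Exons of the principal transcript made up 4.58% of the span of Anxa6, 4.05% of Ak7 and 22.9% of Stxbp2. Papola, the gene of the canonical nuclear poly(A) polymerase, starts 2246 bp downstream of Ak7 on the same strand, and its chromatin level went from 494 CPM in mESC to 202 in mCtx. Gskip lies 2934 bp upstream of Ak7 and was steady on chromatin (ratio of mCtx over mESC 0.998) and higher in mCtx cytoplasm (14.1 against 7.97 CPM in mESC). Tnip1, 16190 bp downstream of Anxa6 on its strand, was lower by a like factor in neuron cytoplasm (ratio of mESC over mCtx 9.86) and was lower on chromatin too (ratio of mCtx over mESC 0.0923). Whether reads from a neighbour's transcripts run into these genes was not tested.

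Related genes were set beside the 3 in families chosen after the genes were known. Fold changes of the relatives are edgeR's for mCtx against mESC, where 41.6% of all genes were lower and 40.1% higher in cytoplasm, and 47.4% lower and 33% higher on chromatin. The chromatin scale matters here. With trimmed-mean scaling 8646 genes were lower and 6014 higher on chromatin, and with total-count scaling 11583 and 3926, the median gene moving by -0.79 on the log2 scale. For the 3 genes themselves the fitted chromatin change was 0.28 (Anxa6), 0.05 (Stxbp2) and 0.63 (Ak7) with trimmed means, and -0.51, -0.74 and -0.16 with total counts, so its sign depends on the scaling.

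Of 6 other Sec1/Munc18 genes, which pair with syntaxins at different membranes, 4 were lower in neuron cytoplasm and 1 higher (3 and 1 with total counts). On chromatin none of the 6 was called lower and 4 were called higher with trimmed means, but 4 were lower and 2 higher with total counts. The 4 genes lower in cytoplasm without a lower call on chromatin became 0 with total counts. Of all genes tested, that call was made for 6.9% with trimmed means and 1.27% with total counts, which holds for the groups below too. Stxbp3, a broadly expressed relative, fell in cytoplasm (log2 -1.89, SE 0.13, edgeR adjusted p = 2.12e-13) and stood at -0.14 on chromatin (SE 0.12, edgeR adjusted p = 0.257). Its mean went from 23.6 to 7.49 CPM in cytoplasm and from 38.5 to 20.2 CPM on chromatin. Scfd1, which serves transport between the endoplasmic reticulum and Golgi, fell by 1.34 on the log2 scale in cytoplasm (edgeR adjusted p = 3.18e-11) and stood at -0.03 on chromatin (edgeR adjusted p = 0.829).

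Among 10 tested genes for SNAREs and priming factors that work with Stxbp2, 7 were lower and 2 higher in neuron cytoplasm (5 and 2 with total counts). On chromatin 4 were lower and 3 higher (7 and 2 with total counts, by which each gene lower in cytoplasm was also lower on chromatin). Snap23, a broadly expressed plasma membrane SNARE, fell in cytoplasm from 47.2 to 13.9 CPM (log2 -2.0, SE 0.15, edgeR adjusted p = 1.97e-12) and stood at 0.29 on chromatin (SE 0.14, edgeR adjusted p = 0.0613). Stx3, a syntaxin bound by Stxbp2, fell in cytoplasm from 59 to 15.7 CPM (-2.15, edgeR adjusted p = 1.13e-12) and by 0.35 on the log2 scale on chromatin (edgeR adjusted p = 0.0314). Unc13d and Rab27a, which act with Stxbp2 in granule release from lymphocytes, fell in both fractions (cytoplasm -5.48 and -5.83, chromatin -3.91 and -5.40, edgeR adjusted p of 1.14e-06 or less). Vamp2, the synaptic vesicle SNARE, rose from 4.72 to 125 CPM in cytoplasm (log2 4.49, SE 0.16, edgeR adjusted p = 3.74e-19). On chromatin Vamp2 had 7.87 CPM in mESC and 7.77 CPM in mCtx, which the trimmed-mean fit called higher (0.77, SE 0.15, edgeR adjusted p = 5.25e-05).

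Among 9 other tested annexins, 7 were lower in neuron cytoplasm and 7 lower on chromatin, with every annexin called lower in cytoplasm also called lower on chromatin. Their median log2 change was -1.88 in cytoplasm and -2.18 on chromatin, beside -0.05 and -0.38 for all genes. Anxa7 came closest to Anxa6, at -2.82 in cytoplasm (SE 0.13, edgeR adjusted p = 1.78e-16) and -1.05 on chromatin (SE 0.13, edgeR adjusted p = 5.19e-08). Anxa2 fell by 1.88 and 1.32 on the log2 scale, and Anxa5 rose by 0.58 and 1.61 (edgeR adjusted p = 0.0481 and 2.56e-05). With median-ratio size factors the cytoplasm call of Anxa5 was lost (0.47, edgeR adjusted p = 0.111). With total counts 7 were again lower in each fraction.

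**Figure D5:**
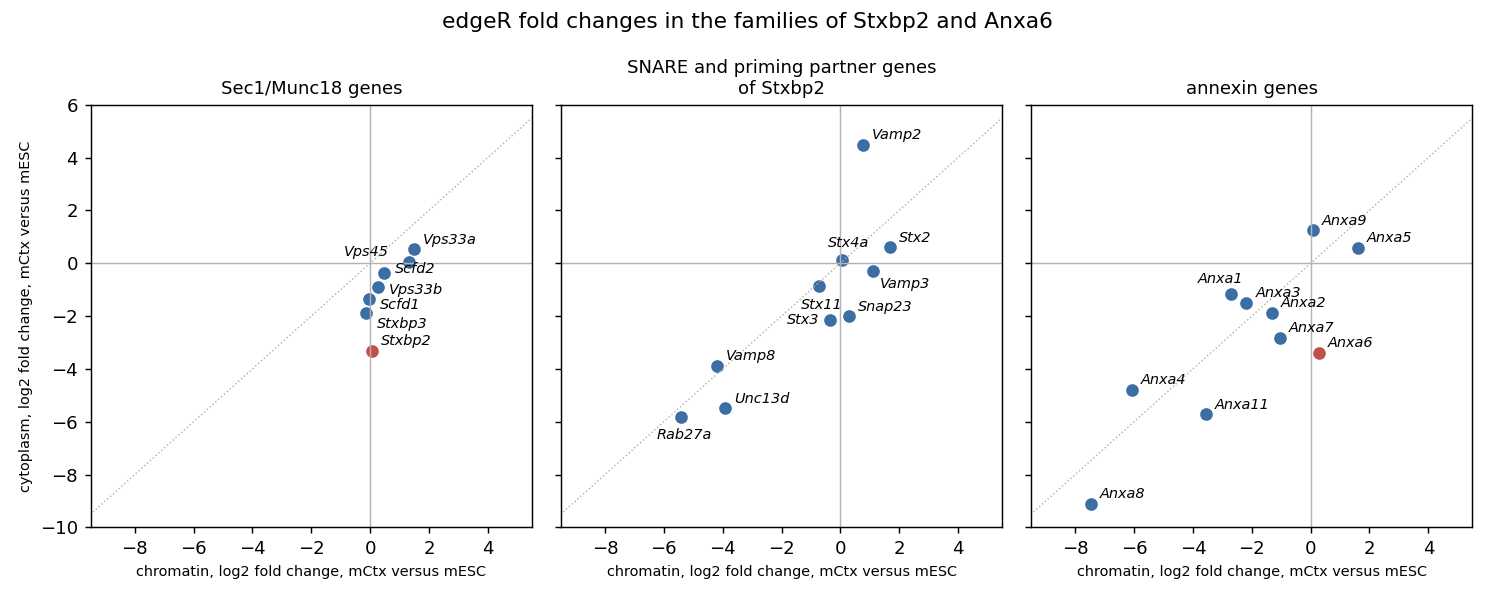
Each point is a gene, with edgeR's log2 fold change of mCtx versus mESC on chromatin (x) and in cytoplasm (y), trimmed-mean scaling, and Stxbp2 and Anxa6 in red. Points under the dotted line of equal change have a lower value in cytoplasm than on chromatin, as Stxbp3 (-1.89 against -0.14), Snap23 (-2.0 against 0.29) and Anxa7 (-2.82 against -1.05) do. The red points were chosen for their place.

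Ak7 had no close match among the adenylate kinases. Of 8 others, 3 were lower and 3 higher in neuron cytoplasm, and all 3 that were lower were also called lower on chromatin. Ak4, a mitochondrial matrix enzyme, fell by 3.15 on the log2 scale in cytoplasm and 2.63 on chromatin, and Ak5, a brain-enriched member, rose by 5.42 and 5.38. Of 19 other genes of motile cilia, 9 were lower and 7 higher in cytoplasm, and 7 lower and 8 higher on chromatin. Rsph1, Ccdc40 and Dnaic1 were called lower in cytoplasm (log2 -2.38, -1.55 and -0.72) and not on chromatin (-0.29, -0.41 and 1.38), and with total counts no gene of this group was so. Hydin, of the ciliary central pair, fell in both fractions (log2 -3.34 in cytoplasm and -1.91 on chromatin). Foxj1, the regulator of motile cilia genes, had an mCtx cytoplasm mean of 8.21 CPM against 6.06 in mESC (log2 0.20, edgeR adjusted p = 0.456).

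None of the 13 gene lists drawn up for this comparison held Anxa6, Stxbp2 or Ak7. The lists of stem cell functions fell on chromatin as well as in cytoplasm. Of 60 cell cycle and DNA replication genes, 59 were lower in cytoplasm and 59 on chromatin. All 30 pluripotency genes were lower in both, and of 40 ribosome biogenesis genes 40 were lower in cytoplasm and 39 on chromatin. Of 26 genes with detained introns and splicing kinases, 16 were lower in cytoplasm and 11 on chromatin, and 7 were called lower in cytoplasm and not on chromatin. That last call was made for 6.9% of all genes tested. With total counts 23 of the 26 were lower on chromatin, and the last call was made for 0 of them and for 1.27% of all genes.

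At a limit of 4 in place of 8, a further 14 genes met the rule, 13 of them with a symbol. Sgk1, a kinase induced by serum and glucocorticoids, had a cytoplasm ratio of 5.41 and went from 161 to 29.7 CPM there, with 63.9 and 85.2 CPM on chromatin. Gga2, a clathrin adaptor of the Golgi, had a ratio of 4.53, and Tjp1, a tight junction scaffold, 4.38. In nucleoplasm, which did not enter the rule, the mCtx mean was below the mESC mean for 12 of the 14, and for 17.5% of the 3283 genes steady on chromatin and at the minimum in mESC cytoplasm. The ratio of mNPC over mESC chromatin was under 0.25 for 3 of the 14 and for 3.93% of the 3283 genes, and Sgk1 (16.4 against 63.9 CPM) lay close to that limit.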

How the data were processed

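The authors deposited whole-number read counts per gene for 27 libraries, and TPM. Per the submitters' processing notes STAR, featureCounts and kallisto were used on mm10. Versions and roles are not given in the sources used here. The chromatin columns were recorded under the heading of expected counts, since their short name Chr was taken for chromosome by an automatic check, but the deposited values are raw counts throughout. The deposited length of each gene equals its span for all 37332 genes, so counts include introns. Strand, multi-mapping and overlap settings are not given. Chromosome M genes stayed in library totals.

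CPM was computed on library totals for choosing genes. Tests used edgeR 4.0.16 (R 4.3.3) (quasi-likelihood test, 18 residual degrees of freedom) on all 27 libraries, with a mean for each group, scaling by trimmed means and the default low-count filter (18249 genes, all 3 members kept), at an adjusted p of 0.05. Alternatives were median-ratio and total-count scaling, no filter, only the compared groups, a replicate block, DESeq2 1.42.0, limma 3.58.1 on log2(TPM + 1), log2(TPM + 0.1) and a TPM of 1 or more in 3 libraries, and leaving out each library. Rescaled TPM and the raised mirror rule were added after seeing the data. The members, families and lists were chosen with earlier results of these data known. The genes named are the members, the 3 nearest outside each threshold, and relatives and list genes, picked after their values were seen. A further related gene is not reported here. Gene structure came from GENCODE vM21.

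The edgeR script was tested on simulated data with 50 genes changed at each fold. For mCtx versus mESC nucleoplasm (17962 genes) it recovered 13 at 1.5-fold, 37 at 2-fold, 46 at 4-fold and 50 at 8-fold.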

Additional observations from a re-analysis of the deposited data

How the results depend on the processing

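The number of genes meeting the rule depended on its limits and on scaling. It was 17 at a cytoplasm ratio of 4, 0 at 16, 18 with CPM on trimmed-mean library sizes (Anxa6 and Stxbp2 among them), 1 with 1 CPM added (Anxa6), 201 with deposited TPM (Anxa6 and Stxbp2 among them) and 32 with rescaled TPM (Anxa6 among them). A chromatin band of 0.67 to 1.5 left 2 genes, without Stxbp2. A minimum of 10 CPM left 2, without Ak7, and a minimum of 2 CPM gave 4. Leaving out 1 library gave 2 to 3. Of 144 count-based alternatives of the 12 single-gene fold changes, 142 kept direction and side of the threshold, the exceptions being the Ak7 values in mNPC. The count higher on chromatin than in mNPC cytoplasm was 0 and became 1 with total-count scaling, 0 to 1 when leaving out 1 library, 2 with log2(TPM + 0.1) and 2 with rescaled TPM, where Stxbp2 turned to 0.66 and 0.56. For mCtx versus mNPC nucleoplasm, the count lower went from 1 to 0 with log2(TPM + 1), its filtered form and log2(TPM + 0.1), where Anxa6 turned to 0.10, 0.10 and 0.12, and the count higher from 2 to 1 with log2(TPM + 1), its filtered form and rescaled TPM. The count lower in mCtx than mESC nucleoplasm went from 3 to 2 with log2(TPM + 1), its filtered form and log2(TPM + 0.1), and to 1 with rescaled TPM. Anxa6 in mNPC versus mESC nucleoplasm turned to -1.18, -1.18 and -1.31 on those deposited TPM scales (adjusted p at most 1.01e-05, making 3 of 3 lower), and was 0.02 after rescaling. The cause of these changes was not tested. Same-numbered libraries of mNPC chromatin and cytoplasm correlated at 0.189, 0.0805 and 0.119, each best with its own number (3 of 3). Those across cell types correlated at -0.0583 to 0.0554. The main tests did not pair libraries by number, although the mNPC fractions may be paired. The replicate block changed no call of the 3 genes and gave 2 genes lower in mNPC than mESC nucleoplasm, 3 lower in mCtx than mESC, and 12576 called genes between the mNPC fractions against 12262 without it. Depth limits Ak7 most, with 13 to 14 reads in mCtx cytoplasm.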
